A study of Mus musculus with 3 samples.

Results

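Naive-like CD4 T cells are the T cells of these mouse lung tumours that carried transcripts of the helper lineage and of the naive programme, and none of the effector genes looked for. A barcode counted as a cell when it held at least 500 UMIs (unique molecular identifiers, each standing for 1 captured transcript), at least 200 genes and at most 20% mitochondrial UMIs. A cell was a member when it held at least 2 UMIs of Cd3e, Cd3d and Cd3g together, at least 1 of Cd4 and Cd40lg, and at least 2 of Lef1, Dapl1 and Ccr7. It also had to hold no UMI of Cd8a, Cd8b1, Foxp3, Cxcr6, Cxcr3, Ifng, Icos, Rag1, Dntt, Arpp21, Cd79a or Ms4a1. This rule found 572 members among 29513 cells, namely 195 of 9697 cells in the PD-L1 library, 195 of 10457 in the AI-Exo library and 182 of 9359 in the PBS library.

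The study profiled immune cells of a mouse non-small cell lung cancer, cell by cell, after treatment, in a project on exosomes that act on autophagy and immune tolerance. There was 1 library for each of the groups that the labels call PD-L1, AI-Exo and PBS, the last being the buffer and taken here as the reference. The labels do not spell out the names PD-L1 and AI-Exo, and they state no strain, age, tumour line, dose, time or number of animals behind a library. With 1 library per group there is no replicate check, so no test was run, and every interval below covers counting error only.

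Naive CD4 T cells leave the thymus, circulate between blood and lymphoid organs, and wait in a resting state for the antigen their receptor recognises. The transcription factors Lef1, Tcf7, Klf2 and Foxo1 keep this state, the receptors Ccr7 and S1pr1 guide the traffic, and interleukin 7, sensed through Il7r, keeps the cells alive. On activation they lose many of these transcripts and turn into helper or regulatory cells.

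The libraries held 65997942 UMIs in PD-L1, 76512500 UMIs in AI-Exo and 68386729 UMIs in PBS. Pairs of libraries shared 23 to 33 cell barcodes, and no barcode was a member in more than 1 library. The libraries stood apart in other cells. Immature T-lineage cells, with at least 2 UMIs of Rag1, Dntt and Arpp21 and none of Cd79a and Ms4a1, made up 9.69% of cells in PD-L1, 0.0478% (5 cells) in AI-Exo and 10.6% in PBS. B cells, with at least 3 UMIs of Cd79a and Ms4a1 and no CD3 UMI, made up 16.8% of cells in PD-L1, 25.9% in AI-Exo and 12.6% in PBS.

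Members were compared with B cells in markers that the rule did not use. Tcf7, the partner of Lef1, had a UMI in 85.6%, 81.0% and 84.1% of members in PD-L1, AI-Exo and PBS, and Il7r in 60.0%, 77.9% and 76.4%. In B cells, which should lack both, the shares were 2.64%, 0.923% and 2.20% for Tcf7 and 1.23%, 1.03% and 2.54% for Il7r. Median depths were 3786, 4007 and 3399 UMIs in B cells and 4930, 4854 and 4422 UMIs in members. Both markers were thus far above the B cell level in every library. B cells were chosen without CD3 UMIs and members with them, so this contrast bears on T cell identity alone. It does not show a naive state or the CD4 lineage.

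Of the genes members were selected on, Cd4 had a UMI in 81.5%, 81.5% and 76.4% of members in PD-L1, AI-Exo and PBS, against 0.430%, 0.369% and 0.424% of B cells, and the other members entered through Cd40lg, the ligand by which helper T cells signal to B cells. Lef1 carried most of the naive criterion, with a UMI in 97.4%, 98.5% and 97.3% of members. Exactly 2 UMIs of Lef1, Dapl1 and Ccr7 were found in 8 members in PD-L1, 8 in AI-Exo and 9 in PBS. Otherwise matching cells with exactly 1 such UMI numbered 9, 9 and 15. Summed over the cells just inside, Tcf7 had 499.9, 403 and 470.4 UMIs in every 1000000 (CPM, of the summed UMIs), and just outside 637, 175 and 327 CPM. Il7r had 190, 224 and 504 CPM just inside and 566, 162 and 455 CPM just outside. In PD-L1 both genes were higher just outside, and in AI-Exo and PBS just inside, over few cells.

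Some members carried transcripts of another lineage. At least 5 UMIs of 12 myeloid marker genes, or at least 10 of the class II genes Cd74, H2-Aa and H2-Ab1, were held by 28 members in PD-L1, 19 in AI-Exo and 32 in PBS. These cells were deep, with medians of 10494, 13779 and 13778 UMIs, and the doublet caller Scrublet scored 16, 4 and 17 of them at 0.15 or more. The other 167, 176 and 150 members had medians of 4615, 4775 and 4219 UMIs, and 2, 0 and 0 of them reached that score. They are called single-lineage members below. This split was chosen after the data were seen, and it was applied to the neighbouring T cell classes too.

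Naive-like CD4 T cells took similar shares of all cells, and their share of T cells was highest in PD-L1. Of all cells they made up 2.01% of cells in PD-L1 (exact 95% interval 1.74 to 2.31), 1.86% in AI-Exo (1.61 to 2.14) and 1.94% in PBS (1.67 to 2.25). The ratio of shares was 1.03 for PD-L1 over PBS (95% interval 0.841 to 1.27) and 0.959 for AI-Exo over PBS (0.779 to 1.18), and both intervals include 1. Single-lineage members gave 1.72% in PD-L1, 1.68% in AI-Exo and 1.60% in PBS. The next shares are of T cells alone, which leaves immature T-lineage cells and B cells out of the denominator. All members made up 11.3% in PD-L1 (9.85 to 12.9), 8.25% in AI-Exo (7.17 to 9.43) and 9.22% in PBS (7.98 to 10.6). For all members the intervals of PD-L1 and AI-Exo do not overlap. The ratios among T cells were 1.23 for PD-L1 over PBS (0.997 to 1.51) and 0.894 for AI-Exo over PBS (0.727 to 1.10). For single-lineage members they were 1.27 (1.02 to 1.60), an interval above 1, and 0.979 (0.783 to 1.23). Without the single-lineage members at 15 or more UMIs of immature T-lineage genes, a line described below, they were 1.23 (0.963 to 1.58) and 1.13 (0.894 to 1.43). Both of these intervals include 1. For single-lineage members the T cell shares of PD-L1 and AI-Exo were 9.68% (8.33 to 11.2) and 7.44% (6.42 to 8.57), whose intervals overlap. Without those at 15 or more immature UMIs they were 7.94% (6.71 to 9.32) and 7.27% (6.26 to 8.39), which overlap too.

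Naive-like CD8 T cells, found by the mirrored rule with the CD8 genes in place of the CD4 genes, made up 1.17% of cells in PD-L1, 0.822% in AI-Exo and 1.59% in PBS. Their ratios were 0.732 for PD-L1 over PBS (0.568 to 0.941) and 0.517 for AI-Exo over PBS (0.391 to 0.678), and both intervals lie below 1. Among T cells alone the ratio was 0.868 for PD-L1 over PBS (0.674 to 1.12), an interval that includes 1, and 0.482 for AI-Exo over PBS (0.365 to 0.632). The other CD4 T cells without Foxp3 made up 3.74%, 5.30% and 5.40% in PD-L1, AI-Exo and PBS. The difference between the CD4 and CD8 ratios was not tested, since each rests on 1 library per group.

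**Figure D1:**
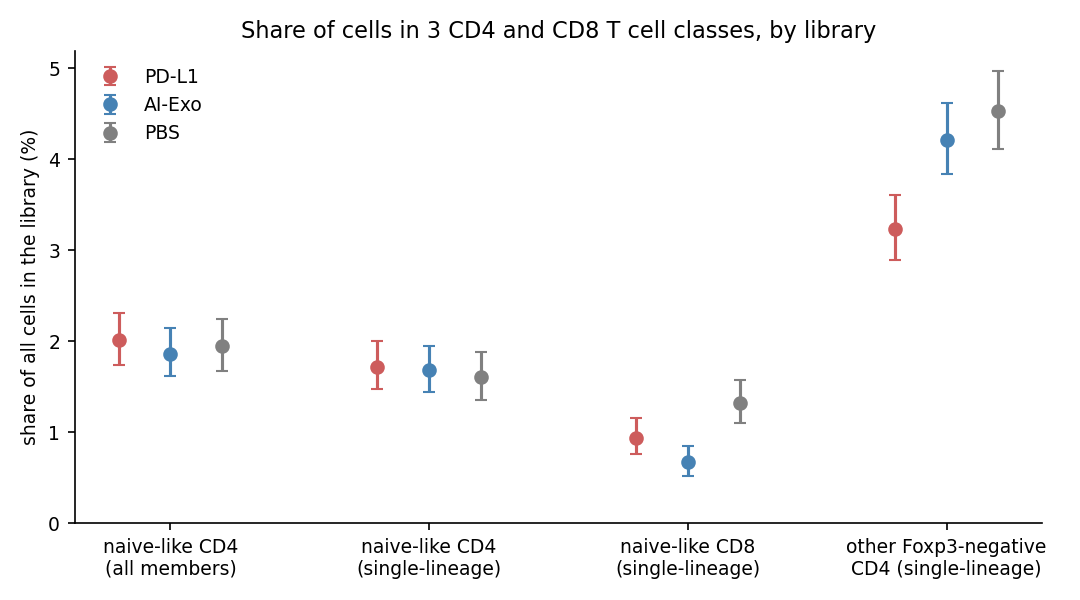
Share of all cells in a library, in percent, for naive-like CD4 T cells (all members, then single-lineage members) and single-lineage cells of neighbouring classes, with points for the PD-L1, AI-Exo and PBS libraries and bars for exact 95% binomial intervals. All members make up 2.01%, 1.86% and 1.94% of cells in PD-L1, AI-Exo and PBS, while single-lineage naive-like CD8 T cells make up 0.938%, 0.669% and 1.32%.

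The next values describe how naive-like CD4 T cells differ from neighbouring classes. The gates set these contrasts, so nothing here is a test. Against naive-like CD8 T cells, single-lineage cells in both cases, 19 of 1256 genes at 100 CPM or more were at least 1.5-fold higher in all 3 libraries (1.51%) and 28 were lower (2.23%). Against the other CD4 T cells, 34 of 1434 genes were higher (2.37%) and 151 were lower (10.5%).

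A few genes outside the rule set the CD4 class apart from the CD8 class. Trat1, an adaptor of the T cell receptor, had 141, 159 and 142 CPM in naive-like CD4 T cells of PD-L1, AI-Exo and PBS, against 57.4, 37.2 and 50.5 CPM in naive-like CD8 T cells. Trib2, a pseudokinase, had 144, 204 and 168 CPM against 69.7, 42.1 and 66.3 CPM. In both the CD4 class was the higher in every library. Zbtb7b, the factor that commits thymocytes to the CD4 lineage, was sparse, with 22.1, 9.59 and 18.5 CPM in the CD4 class and 0, 2.48 and 1.58 CPM in the CD8 class.

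Of the 29 genes of the effector and helper list, 7 reached 100 CPM in either class of every library, and 3 of these were lower in naive-like CD4 than in naive-like CD8 T cells in all 3 libraries, namely Ccl5, Nkg7 and Ly6c2. The chemokine gene Ccl5 had 22.1, 59.9 and 40.2 CPM in the CD4 class of PD-L1, AI-Exo and PBS, against 751, 1023 and 1469.8 CPM in the CD8 class. Ly6c2, a surface protein of memory CD8 T cells, had 8.59, 5.99 and 1.54 CPM against 389.7, 382 and 305 CPM. In both the CD4 class was the lower in every library, by over 1.5-fold.

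Of the 20 genes of the naive and quiescence list, none of which the rule used, 17 reached 100 CPM in either CD4 class of every library. In naive-like CD4 T cells 8 of the 17 were higher than in the other CD4 T cells in all 3 libraries, 0 were lower in all 3, and the other 9 were not 1.5-fold apart in 1 direction throughout. Of the effector and helper list, whose leading genes the rule excludes, 15 of 17 were lower. Igfbp4, a secreted binding protein of insulin-like growth factors, had 261, 340.4 and 279.5 CPM in naive-like CD4 T cells of PD-L1, AI-Exo and PBS, against 124, 78.1 and 66.6 CPM. Satb1, a chromatin organiser of T cells, had 1646, 1311 and 1668 CPM against 817, 474 and 519 CPM. Actn1, an actin crosslinker, had 212, 189 and 176 CPM against 87.9, 63.6 and 61.9 CPM. S100a4, a calcium-binding protein of effector and memory cells, ran the other way, with 36.8, 19.2 and 49.4 CPM against 1015, 1592 and 1050.4 CPM.

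**Figure D2:**
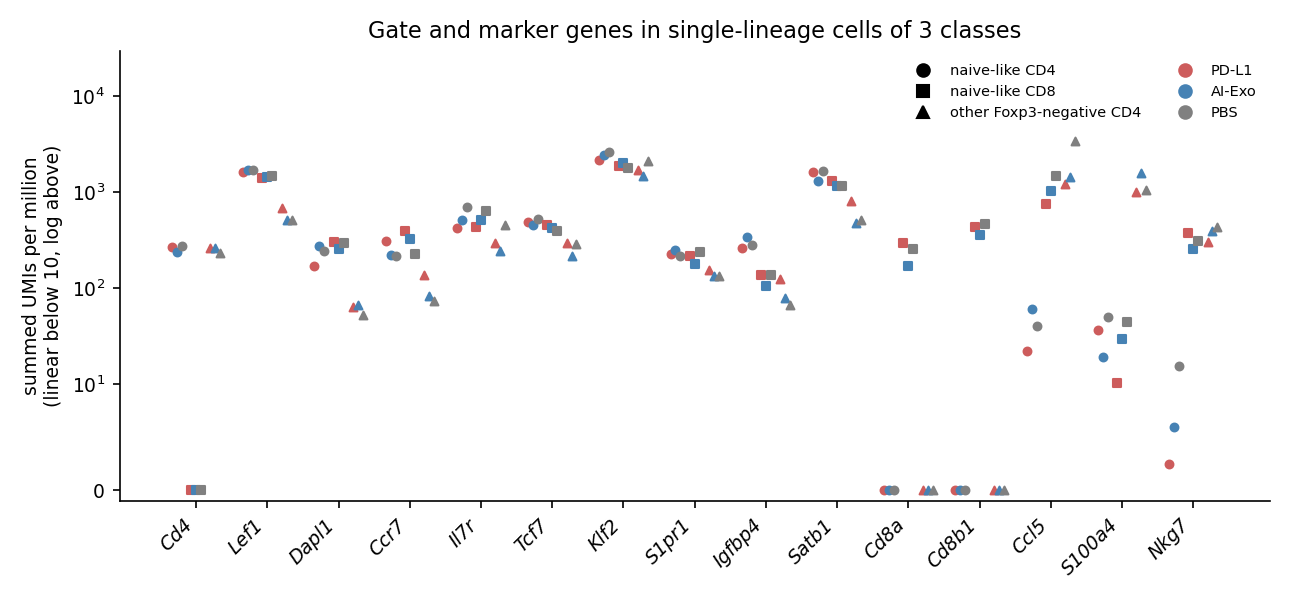
Summed UMIs per 1000000 of gate and marker genes in naive-like CD4 T cells, naive-like CD8 T cells and other Foxp3-negative CD4 T cells, single-lineage cells throughout, with the class given by marker shape and the PD-L1, AI-Exo or PBS library by colour, and an axis that is linear below 10 CPM and logarithmic above. Lef1, Dapl1 and Ccr7 chose the naive classes, so their height is no finding, while Igfbp4 and Satb1, which did not, are higher in naive-like than in other CD4 T cells of every library.

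Members also varied among themselves. Each cell was thinned to 1000 UMIs, and the Fano factor (variance over mean, near 1 for counting noise) was taken over single-lineage members. The nuclear long RNA Malat1 had factors of 7.22, 4.08 and 5.45 in PD-L1, AI-Exo and PBS. The immediate early gene Fos had 4.71, 3.69 and 5.29, the quiescence factor Klf2 had 4.92, 2.81 and 5.02, and the heat shock gene Hspa1a had 3.97, 4.45 and 3.88. The median gene had 1.07, 1.05 and 1.06. These 4 genes were uneven between members in every library.

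The libraries also allow PD-L1 and AI-Exo to be set against PBS within these cells. UMIs were summed over members, and a gene was called higher or lower by size when its CPM plus 10 differed by 1.5-fold or more, among genes that reached 50 CPM in either library. For PD-L1 over PBS, 132 of 3552 genes (3.72%) were higher and 202 (5.69%) lower. For AI-Exo over PBS, 63 of 3398 genes (1.85%) were higher and 397 (11.7%) lower. In single-lineage members, 133 of 3286 genes (4.05%) were higher and 106 (3.23%) lower for PD-L1, and 65 of 3137 (2.07%) were higher and 311 (9.91%) lower for AI-Exo.

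More genes were called lower than higher in AI-Exo under each scaling tried, and how many more varied with the scaling. The median gene had a log2 ratio of -0.14 for AI-Exo over PBS in members and -0.13 in single-lineage members, against 0.00 and 0.01 for PD-L1. Ribosomal protein genes took 27.3%, 31.7% and 27.9% of the UMIs of single-lineage members in PD-L1, AI-Exo and PBS. With TMM scaling the AI-Exo counts over members became 192 higher and 230 lower, and with ratios centred on the median gene 154 and 264. Scaling without mitochondrial and ribosomal protein genes gave 161 higher and 425 lower. AI-Exo ratios below are uncentred and are to be read against that median.

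The widest ratios over all members came from genes of myeloid cells. For PD-L1 over PBS the 8 highest were G0s2, Acod1, Hcar2, Slfn4, Ccrl2, Ccl8, Slc7a11 and Ifitm1, with log2 ratios of 3.85 to 1.09. G0s2, an inhibitor of lipolysis, had 705 CPM in PD-L1 and 39.6 CPM in PBS over all members, and 50.3 and 21.6 CPM over single-lineage members. The 8 lowest were Camp, Ngp, Lcn2, Ltf, Ccl5, Plac8, Cd63 and Anxa1, at -6.14 to -1.80, the first 4 being neutrophil granule genes. Camp had no UMI in PD-L1 members, which allows up to 2.54 CPM at 3 counts, and 695 CPM in PBS members, where 3 cells held all of it.

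For AI-Exo over PBS the 8 lowest over all members were F13a1, Spp1, Pf4, Camp, Mrc1, Lcn2, Ccl9 and Apoe, macrophage and neutrophil genes, at -3.30 to -2.32. Spp1, osteopontin, had 11.9 CPM in AI-Exo and 198 CPM in PBS over all members, and 9.59 and 7.72 CPM over single-lineage members. Among the highest were G0s2, Tnfsf8, Fabp5, Hs3st3b1, Isg15, Ifih1 and Ifit1, at 1.43 to 0.94. For Fabp5, a fatty acid carrier, 3 cells held 91.1% of the AI-Exo UMIs.

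Of the genes called over members, 40.9% of the higher and 19.3% of the lower PD-L1 calls, and 44.4% and 34.8% of the AI-Exo calls, were also called over single-lineage members. The summed myeloid markers stood at 3559, 2427 and 6222 CPM over all members of PD-L1, AI-Exo and PBS, and at 168, 183 and 198 CPM over single-lineage members, with at most 4 UMIs in a cell. The gene values that follow are those of single-lineage members unless stated.

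Genes of the immature T-lineage were much lower in AI-Exo. Itm2a, a membrane protein induced during selection in the thymus, had 255 CPM in PD-L1 (exact 95% interval 222 to 292), 51.5 in AI-Exo (37.3 to 69.4) and 351 in PBS (306 to 399). Sox4, a factor of lymphoid precursors, had 152 CPM in PD-L1 (127 to 181), 15.6 in AI-Exo (8.30 to 26.6) and 109.6 in PBS (85.6 to 138). Tox, needed for CD4 T cells to form in the thymus and also known from exhausted T cells, had 691 CPM in PD-L1 (635 to 751), 279 in AI-Exo (245 to 318) and 633 in PBS (573 to 698). For each, the AI-Exo interval lies below those of PD-L1 and PBS.

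The log2 ratios for AI-Exo over PBS were -2.55 for Itm2a, -2.23 for Sox4 and -1.15 for Tox, and over all members -2.25, -2.07 and -0.94. For PD-L1 over PBS they were -0.44, 0.44 and 0.12. Of the 13 genes of this list, 5 reached the minimum for AI-Exo, where 0 were higher and 3 lower with a median of -1.15. Of all genes 9.91% were lower for AI-Exo. Sox4 reached the minimum in PBS and not in AI-Exo. With the minimum set on the mean of both libraries, 3 of 5 were again lower, where 7.34% of all genes were. For PD-L1, 6 reached it and 0 were called, with a median of 0.15. Over all members, 3 of 5 were again lower for AI-Exo (median -0.94), where 11.7% of all genes were. Of these 3, 2 reached the minimum in PBS and not in AI-Exo. For PD-L1 0 of 6 were called there (median 0.33).

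Other genes of the list were level or sparse. Themis, which tunes receptor signals in thymocytes, had 336, 285 and 299.6 CPM in PD-L1, AI-Exo and PBS, the list's highest ratio for AI-Exo at -0.07. Ccr9, a homing receptor of thymocytes and gut T cells, had 52.8, 0 and 46.3 CPM, in 23, 0 and 13 cells. A count of 0 in AI-Exo allows up to 3.60 CPM at 3 counts. Cd24a, a surface protein lost as thymocytes mature, had 29.5, 3.60 and 29.3 CPM. AI-Exo was the lowest library for all of these.

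These transcripts were spread unevenly over cells. Summed over the 13 genes, single-lineage members held a median of 6 UMIs in PD-L1, 4 in AI-Exo and 5 in PBS, and at most 57, 15 and 61. At least 15 such UMIs were found in 30 cells in PD-L1 (18.0%, exact 95% interval 12.5 to 24.6), 4 in AI-Exo (2.27%, 0.623 to 5.72) and 23 in PBS (15.3%, 9.98 to 22.1). This line was chosen after the data were seen and cuts a continuous range, since 49, 13 and 36 cells held 10 or more. With every cell thinned to 1000 UMIs, 24.6%, 9.66% and 26.0% of cells held at least 3.

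**Figure D3:**
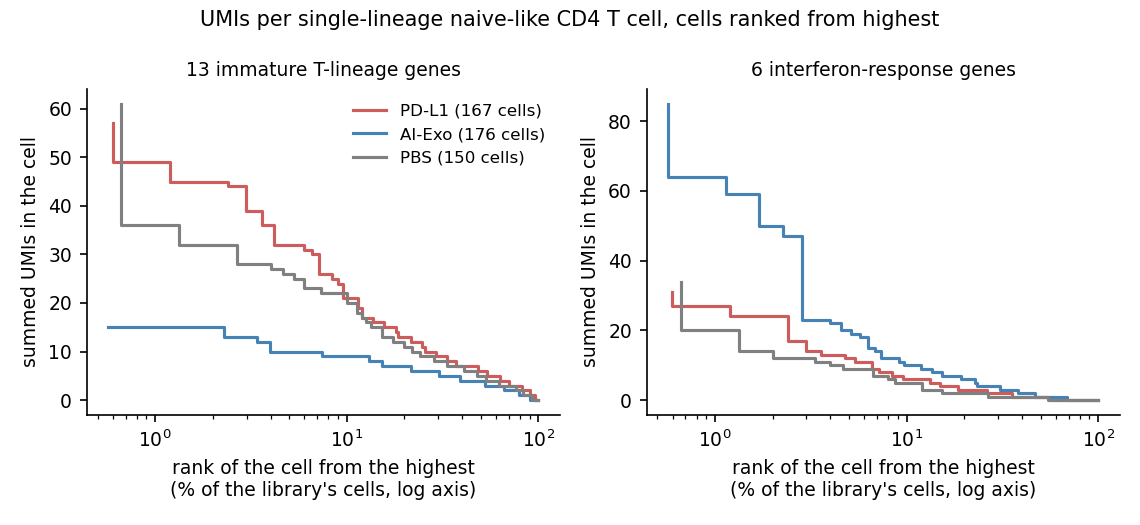
Summed UMIs per cell of the immature T-lineage genes and of 6 interferon-response genes in single-lineage naive-like CD4 T cells, ranked from the highest cell within each of the PD-L1, AI-Exo and PBS libraries, with rank as percent of cells on a log axis. The highest immature sums are 57, 15 and 61 UMIs in PD-L1, AI-Exo and PBS, and the highest interferon sums are 31, 85 and 34.

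The single-lineage members at 15 or more immature UMIs differed in genes of the mature naive state that did not set the split. Igfbp4 had 58.6 CPM in them and 315 CPM in the remaining single-lineage members of PD-L1, and 58.3 CPM and 329.9 CPM in PBS. Il7r had 205 CPM and 487 CPM in PD-L1, and 358 CPM and 781 CPM in PBS. The 4 such cells of AI-Exo are too few to describe.

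Among the remaining 137, 172 and 127 single-lineage members of PD-L1, AI-Exo and PBS, Itm2a had 82.3, 50.5 and 154 CPM and Sox4 74.5, 16.0 and 70.1 CPM. The log2 ratios for AI-Exo over PBS were -1.44 and -1.62, and that of Tox was -0.53, within 1.5-fold. So Itm2a and Sox4 kept a call for AI-Exo without the cells richest in these genes, and Tox did not. All 3 genes are among those that set the line, which removed 23 cells of PBS and 4 of AI-Exo. The narrower ratios therefore follow in part from the split itself. Sox4 reached the minimum in PBS and not in AI-Exo. In the same cells Itm2a was also called lower for PD-L1 over PBS, at -0.83. In barcodes of at most 100 UMIs, which hold free RNA, Sox4 had 99.1, 9.31 and 81.6 CPM and Itm2a 33.5, 6.98 and 29.4 CPM in PD-L1, AI-Exo and PBS. AI-Exo is the lowest library there too, as it is in its share of immature T-lineage cells, and the part of both in the member values was not tested.

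AI-Exo was the lowest library for Itm2a in neighbouring classes too. The gene had 129, 17.3 and 117 CPM in naive-like CD8 T cells of PD-L1, AI-Exo and PBS and 102, 26.0 and 78.2 CPM in other CD4 T cells, with log2 ratios for AI-Exo over PBS of -2.21 and -1.29. Tox had 297, 141 and 328 CPM in naive-like CD8 T cells and 502, 359.9 and 280.2 CPM in other CD4 T cells, so AI-Exo was its lowest library in the CD8 class and not among other CD4 T cells. The difference between classes was not tested.

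Genes of dividing cells came next. Stmn1, a microtubule regulator, had 108, 40.7 and 122 CPM in PD-L1, AI-Exo and PBS, a log2 ratio of -1.38 for AI-Exo over PBS and -0.16 for PD-L1 over PBS. Of 6 measured cell division genes, 2 were lower for AI-Exo (median -0.45), where 9.91% of all genes were. Of these 2, Stmn1 reached the minimum in PBS and not in AI-Exo. None of the 6 was called for PD-L1 (median -0.07). These sums lean on few cells. Over the 16 genes of the list, the median cell held 6, 5 and 5 UMIs in PD-L1, AI-Exo and PBS. The highest cell held 85, 14 and 177 UMIs, and the 5 highest held 17.5%, 7.15% and 23.8% of the total. Without the members at 15 or more immature UMIs, 0 of 6 were called for AI-Exo (median -0.28). The histone gene Hist1h2bc, outside this list, had 247, 177 and 462 CPM, and both PD-L1 and AI-Exo were called lower than PBS. It kept both calls without the members at 15 or more immature UMIs, at -0.99 for PD-L1 and -1.42 for AI-Exo.

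Some genes induced by type I interferon were higher in PD-L1 and in AI-Exo than in PBS, with different genes leading. Of the 39 genes of the list, 26 reached the minimum for PD-L1, where 7 were higher and 0 lower with a median of 0.41. For AI-Exo, 25 reached it, and 7 were higher and 0 lower with a median of 0.37. These counts lean on the minimum, because 7 genes for PD-L1 and 6 for AI-Exo reached it in PD-L1 or AI-Exo but not in PBS, and 4 of them were among the higher calls in each comparison. With the minimum set on the mean of both libraries, which was chosen after the data were seen, 4 of 22 were higher for PD-L1 (median 0.31), where 2.68% of all genes were, and 7 of 24 for AI-Exo (median 0.31), where 1.74% were. With no minimum, the 38 genes in the files summed to 4645, 4799.95 and 3691 CPM in PD-L1, AI-Exo and PBS. Without the members at 15 or more immature UMIs, 9 of 25 were higher for PD-L1 and 5 of 25 for AI-Exo. In those cells 161 and 80 genes were called higher in all, and the share over all genes was not computed. Over all members 7 of 28 were higher for PD-L1 (median 0.42), where 3.72% of all genes were. For AI-Exo 5 of 25 were higher and 1 lower (median 0.30), where 1.85% and 11.7% of all genes were. Of these higher calls, 3 for PD-L1 and 1 for AI-Exo reached the minimum there but not in PBS. Both comparisons share the PBS library.

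The genes of the list were also searched for a shared letter pattern, a search that does not use the expression values. The core of the interferon-stimulated response element, GAAA on both sides of any 2 bases, was searched on both strands, overlapping matches included, in RefSeq promoters of the build GRCm38.p6, each reaching 250 bases before and 50 bases after the gene start. It was found for 1079 of 27025 genes (3.99%), for 19 of the 30 type I interferon genes with a promoter in the table (63.3%), for 10 of 17 interferon gamma genes (58.8%), and for 1 of 16 naive and quiescence genes (6.25%). The windows of 5 genes, picked because they lead the comparisons, are printed 5′ to 3′ on the gene's strand, with the matches in capitals. They lie at chr4:156200850-156200921 (minus strand) for Isg15, chr19:34640760-34640838 (plus strand) for Ifit1, chr19:34583348-34583441 (plus strand) for Ifit3, chr2:62646206-62646248 (minus strand) for Ifih1 and chr12:26456538-26456597 (minus strand) for Rsad2.
Isg15: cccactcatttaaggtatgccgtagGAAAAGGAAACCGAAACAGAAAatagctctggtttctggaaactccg
Ifit1: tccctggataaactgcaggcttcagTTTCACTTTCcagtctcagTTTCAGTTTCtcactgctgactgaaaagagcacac
Ifit3: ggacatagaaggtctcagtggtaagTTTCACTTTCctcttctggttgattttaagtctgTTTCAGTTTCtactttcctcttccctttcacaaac
Ifih1: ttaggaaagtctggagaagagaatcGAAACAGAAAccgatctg
Rsad2: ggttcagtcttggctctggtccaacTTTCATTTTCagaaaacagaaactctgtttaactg
Isg15 has 3 overlapping matches, Ifit1 and Ifit3 have 2 each that read on the opposite strand, Rsad2 has 1 on the opposite strand, and Ifih1 has 1, after its start. Ifit2, Irf7, Xaf1 and Herc6 had no match in this window, and the promoter of Parp14 was not analysed here. A match describes letters, not binding.

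In AI-Exo the leading genes were Ifih1, Ifit3, Isg15, Ifit2 and Ifit1. Isg15, a ubiquitin-like protein, had 194 CPM in PD-L1 (165 to 227), 325 in AI-Exo (287 to 366) and 144 in PBS (116 to 176). Its log2 ratio was 0.41 for PD-L1 over PBS and 1.12 for AI-Exo over PBS, and over all members 0.97 and 1.11. Ifit1, which binds foreign RNA, had 97.0, 218 and 108 CPM, with ratios of -0.14 and 0.95, and lost its AI-Exo call without the members at 15 or more immature UMIs, at 0.55. Ifih1, the RNA sensor MDA5, had 54.0, 105 and 30.9 CPM, with ratios of 0.65 and 1.5. AI-Exo is the high library for each.

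In PD-L1 the leading genes were Rsad2, Parp14 and Ifit3. Rsad2, the antiviral enzyme viperin, had 56.5, 27.6 and 18.5 CPM in PD-L1, AI-Exo and PBS, but 3 cells held 78.3% of its PD-L1 UMIs. Parp14, an ADP-ribosyltransferase, had 94.5, 75.5 and 40.2 CPM, with log2 ratios of 1.06 and 0.77. Ifit3 had 55.2, 81.5 and 29.3 CPM, with ratios of 0.73 and 1.22. Parp14 and Ifit3 were called higher in both comparisons, but without the members at 15 or more immature UMIs Parp14 was at 0.57 for AI-Exo, within 1.5-fold. Of Rsad2, Parp14 and Ifit3, Parp14 alone reached the minimum for PD-L1 when it was set on the mean. Ifi27l2a, the list's most abundant gene, had 749.9, 662 and 596 CPM, within 1.5-fold.

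The interferon transcripts were uneven between members, though many cells held some. For Ifit1, Ifit2, Ifit3, Isg15, Rsad2 and Cxcl10 together, a set chosen after the values were seen, single-lineage members had 508 CPM in PD-L1, 1015 in AI-Exo and 426 in PBS, while the median cell held 1 UMI in each library. The 5 highest cells held 29.7%, 36.0% and 33.3% of these UMIs. At least 1 such UMI was found in 93 of 167 cells in PD-L1, 121 of 176 in AI-Exo and 82 of 150 in PBS. At least 3 were found in 44, 67 and 23 cells. At least 15 such UMIs were found in 5 cells in PD-L1 (2.99%, 0.979 to 6.85), 12 in AI-Exo (6.82%, 3.57 to 11.6) and 2 in PBS (1.33%, 0.162 to 4.73). Cxcl10, a chemokine for activated T cells, had 49.1, 259 and 78.8 CPM, and 3 cells held 41.7% of its AI-Exo UMIs.

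Other CD4 T cells gave another order of the libraries. Isg15 had 497, 377 and 840.5 CPM in them in PD-L1, AI-Exo and PBS, and Ifit1 435, 372 and 863 CPM, so PBS was the highest. In naive-like CD8 T cells Isg15 had 213, 329.6 and 169 CPM and Ifit1 148, 176 and 83.7 CPM, with AI-Exo the highest as in naive-like CD4 T cells. The difference between classes was not tested. In B cells Isg15 had 120.3, 67.3 and 42.3 CPM and in barcodes with free RNA 372, 222 and 179 CPM, and the part of free RNA in the member values was not tested.

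Genes of the interferon gamma response gave 1 higher call of 16 for PD-L1 (median 0.34), the guanylate-binding protein Gbp2, with 61.4 CPM in PD-L1 and 27.8 CPM in PBS. For AI-Exo, 2 of 16 were higher and 1 lower (median 0.03). Of all genes 4.05% were higher for PD-L1, and 2.07% were higher and 9.91% lower for AI-Exo. Gbp5, another guanylate-binding protein, had 74.3 CPM in AI-Exo and 15.4 CPM in PBS, with 58.1% of the AI-Exo UMIs in 3 cells. Gbp2 and Gbp5 reached the minimum in PD-L1 and AI-Exo alone, and with the minimum on the mean 0 of 15 were called for PD-L1, and 1 was higher and 1 lower of 12 for AI-Exo. Nlrc5, the activator of class I genes, had 93.3, 111 and 60.2 CPM in PD-L1, AI-Exo and PBS. Of 12 measured MHC class I genes, 0 were called for PD-L1 (median 0.03) and 1 was higher for AI-Exo (median 0.09), the peptide-loading factor gene Tapbp with 81.0, 89.9 and 52.5 CPM.

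**Figure D4:**
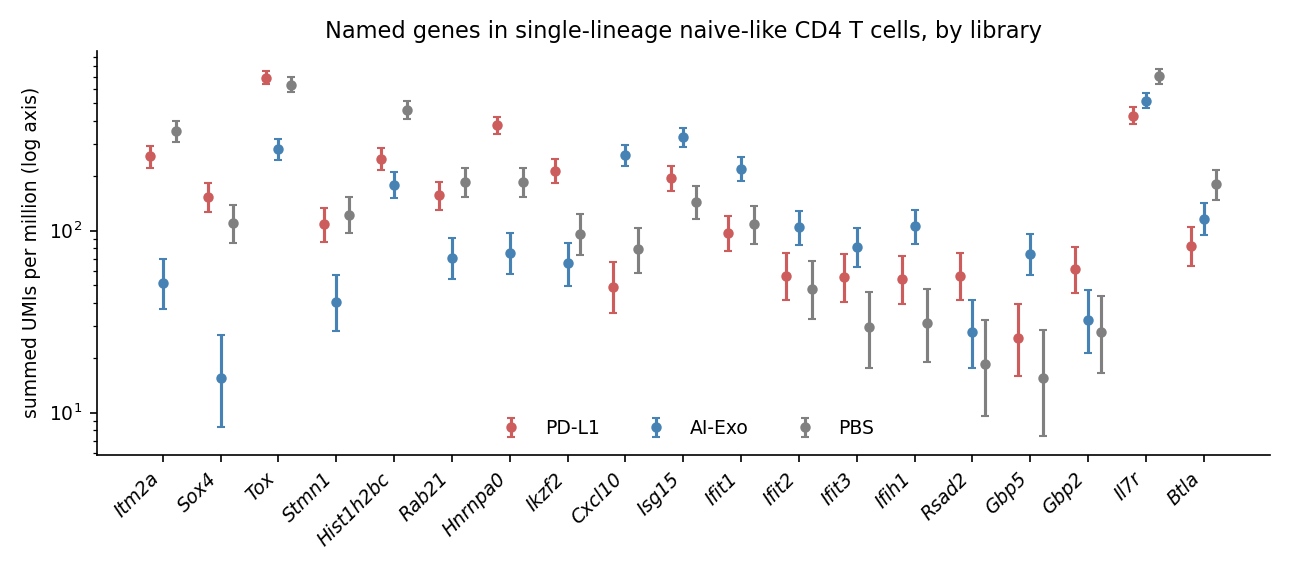
Summed UMIs per 1000000, on a log axis, of named genes in single-lineage naive-like CD4 T cells of PD-L1, AI-Exo and PBS, with bars for exact 95% Poisson intervals. AI-Exo is the lowest library for Itm2a, Sox4 and Tox and the highest for Isg15, Ifit1, Ifih1 and Cxcl10.

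The naive and quiescence genes themselves were nearly level. Of the 20 genes of the list 19 reached the minimum. Over single-lineage members 0 were higher and 1 lower for PD-L1 (median -0.10), and 0 were called for AI-Exo (median 0.08). Il7r, the receptor for the survival signal interleukin 7, was the gene called. It had 428 CPM in PD-L1 (385 to 476), 518 in AI-Exo (470.1 to 569) and 703 in PBS (639.6 to 770.3), with log2 ratios of -0.70 and -0.43. Over all members 0 of 19 were called in either comparison (medians -0.02 and 0.06), and Il7r had ratios of -0.56 and -0.16. Without the members at 15 or more immature UMIs it was called lower in both, at -0.67 and -0.59.

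Il7r had 437, 510.5 and 635 CPM in naive-like CD8 T cells of PD-L1, AI-Exo and PBS and 292, 246 and 454 CPM in other CD4 T cells, so PBS was its highest library there as well. In members Tcf7 had 487, 459 and 525 CPM. The tissue exit receptor S1pr1 had 229.5, 248 and 216 CPM, and Klf2, which drives S1pr1, had 2149, 2478 and 2628 CPM. None of these 3 passed 1.5-fold in either comparison.

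The genes members were selected on are given as a description. Lef1 had 1628, 1708 and 1720.3 CPM in PD-L1, AI-Exo and PBS, Cd4 had 269, 241 and 273 CPM and Cd40lg 163, 147 and 205 CPM. Dapl1, whose role in T cells is little known, had 171, 276 and 246 CPM and Ccr7 307, 222 and 215 CPM. PD-L1 was the lowest library for Dapl1 and the highest for Ccr7, in each case within 1.5-fold of PBS.

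Among genes of the receptor complex, 1 of 18 was higher for PD-L1 (median -0.04) and 2 of 17 were lower for AI-Exo (median -0.31). Over all genes 4.05% were higher for PD-L1 and 9.91% lower for AI-Exo, so these shares are near the background and the genes are given as values. Cd6, a co-receptor that tunes activation, was the one for PD-L1, with 136, 64.7 and 77.2 CPM in PD-L1, AI-Exo and PBS. The kinase gene Fyn had 281, 215 and 361 CPM, and Tespa1, needed for selection in the thymus, had 194, 155 and 266 CPM, both called lower in AI-Exo, Fyn only with the members at 15 or more immature UMIs kept (-0.52 without them). Over all members 1 of 17 was higher for PD-L1 (median 0.13) and 0 of 17 were called for AI-Exo (median -0.02).

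Effector and helper genes were sparse, since the rule removed cells with their leading transcripts. Over single-lineage members 2 of 9 were lower for PD-L1 (median -0.29) and 5 of 11 for AI-Exo (median -0.42), where 3.23% and 9.91% of all genes were. Both PD-L1 calls and 3 of the AI-Exo calls reached the minimum in PBS alone, and with the minimum on the mean 0 of 7 were lower for PD-L1 and 4 of 10 for AI-Exo, where 2.18% and 7.34% of all genes were. Without the members at 15 or more immature UMIs, 5 of 10 were lower for PD-L1 and 7 of 12 for AI-Exo. In those cells 138 and 219 genes were called lower in all, and the share over all genes was not computed. Gata3, a factor of type 2 helper cells and of CD4 T cell development, had 106, 73.1 and 144 CPM in PD-L1, AI-Exo and PBS, and Maf, a factor of follicular helper cells, had 25.8, 32.4 and 66.4 CPM. Over all members 9 of 17 were lower for PD-L1, and 13 were lower and 1 higher of 19 for AI-Exo. Of all genes there, 5.69% were lower for PD-L1, and 11.7% were lower and 1.85% higher for AI-Exo. In each comparison 3 of the lower calls reached the minimum in PBS alone, and the higher call reached it in AI-Exo and not in PBS. With the minimum on the mean 9 of 17 were lower for PD-L1 and 12 of 16 for AI-Exo. Myeloid markers moved with the effector and helper genes over all members, with 6 lower and 1 higher of 14 for PD-L1 and 11 lower of 12 for AI-Exo. In each comparison 3 of these lower calls reached the minimum in PBS alone. Over single-lineage members 0 of 3 were called for PD-L1 and 1 of 3 was higher for AI-Exo, where 2.07% of all genes were. That gene reached the minimum in AI-Exo and not in PBS.

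Checkpoint genes were sparse as well. Btla, an inhibitory receptor of lymphocytes, had 82.2, 116 and 179 CPM in PD-L1, AI-Exo and PBS, with log2 ratios of -1.04 and -0.58. Tnfrsf4, the costimulatory receptor OX40, had 39.3, 7.19 and 57.1 CPM, a ratio of -1.97 for AI-Exo over PBS. Of the measured checkpoint genes 1 of 4 was lower for PD-L1 and 2 of 3 were lower for AI-Exo, where 3.23% and 9.91% of all genes were. Both AI-Exo calls reached the minimum in PBS alone. With the minimum on the mean 1 of 3 was lower for PD-L1 and 1 of 2 for AI-Exo. Pdcd1, which encodes PD-1, had a UMI in 2, 1 and 2 single-lineage members. Cd274, which encodes the ligand of PD-1, had 158, 140.2 and 178 CPM, and Ifngr1, a receptor chain for interferon gamma, had 162, 132 and 137 CPM, neither with a call.

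Ikzf2, which encodes Helios, a factor of regulatory T cells, had 212, 65.9 and 95.7 CPM in PD-L1, AI-Exo and PBS, a log2 ratio of 1.07 for PD-L1 over PBS. In PD-L1, 20 cells held a UMI of it and 3 of them held 61.8% of the total. Without the members at 15 or more immature UMIs the ratio was -1.21, the other direction. Among the other regulatory T genes, Tnfrsf18 was lower in AI-Exo, so 1 of 2 measured genes was called in each comparison. Of all genes 4.05% were higher for PD-L1 and 9.91% lower for AI-Exo. Tnfrsf18 reached the minimum in PBS and not in AI-Exo. With the minimum on the mean 1 of 2 was again lower for AI-Exo, where 7.34% of all genes were.

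Since the project concerns autophagy, its genes were looked at as a list. Over single-lineage members 1 of 16 measured genes was higher for PD-L1 (median 0.14) and 1 of 12 was lower for AI-Exo (median -0.09), shares near the 4.05% and 9.91% of all genes. Neither call was left without the members at 15 or more immature UMIs, where Atg5 was at 0.15 for PD-L1 and Atg3 at -0.53 for AI-Exo. Atg5, part of the conjugation system that extends the autophagosome, was the one for PD-L1, with 67.5, 45.5 and 40.2 CPM in PD-L1, AI-Exo and PBS. Atg3, an enzyme of the same system, was the one for AI-Exo, with 117, 81.5 and 128 CPM. Atg5 reached the minimum in PD-L1 and not in PBS. With the minimum on the mean, 1 of 15 genes was higher for PD-L1, again Atg5, where 2.68% of all genes were. Map1lc3b, an LC3 protein coupled to the membrane, had 265, 201 and 232 CPM. Over all members Lamp1, a lysosomal membrane protein, was the single call in each comparison and was lower.

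The other lists had few calls over single-lineage members. None of 20 respiratory chain genes was called for PD-L1 (median -0.10) or AI-Exo (median -0.19), and none of the 12 measured heat shock genes (medians -0.01 and -0.12). None of the glycolysis genes was called, 9 measured for PD-L1 (median 0.02) and 8 for AI-Exo (median -0.20). Of 12 and 11 adhesion and trafficking genes, 1 was higher for PD-L1 and 0 were called for AI-Exo, and of 19 cytokine receptor genes 0 were called for PD-L1 and 1 was lower for AI-Exo. The adhesion gene called for PD-L1 reached the minimum in PD-L1 and not in PBS. Among 20 immediate early genes the nuclear receptor gene Nr4a3 was higher for PD-L1, with 134 CPM in PD-L1 and 69.5 CPM in PBS, and Nfkbia, the inhibitor of NF-kappa B, was higher for AI-Exo, with 1188 CPM in AI-Exo and 732 CPM in PBS.

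Few markers of other cell types reached the minimum in single-lineage members. No NK and gamma-delta T marker and no erythrocyte marker reached the minimum in either comparison. Of the B cell markers 2 were measured, and Igkc was lower in both comparisons, where 3.23% of all genes were lower for PD-L1 and 9.91% for AI-Exo. Igkc reached the minimum in PBS alone. With the minimum on the mean 1 of 2, again Igkc, was lower in each comparison. Of the CD8 markers Runx3 alone was measured, for AI-Exo, and of the epithelial, endothelial and tumour markers Pecam1 alone, and neither had a call.

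**Figure D5:**
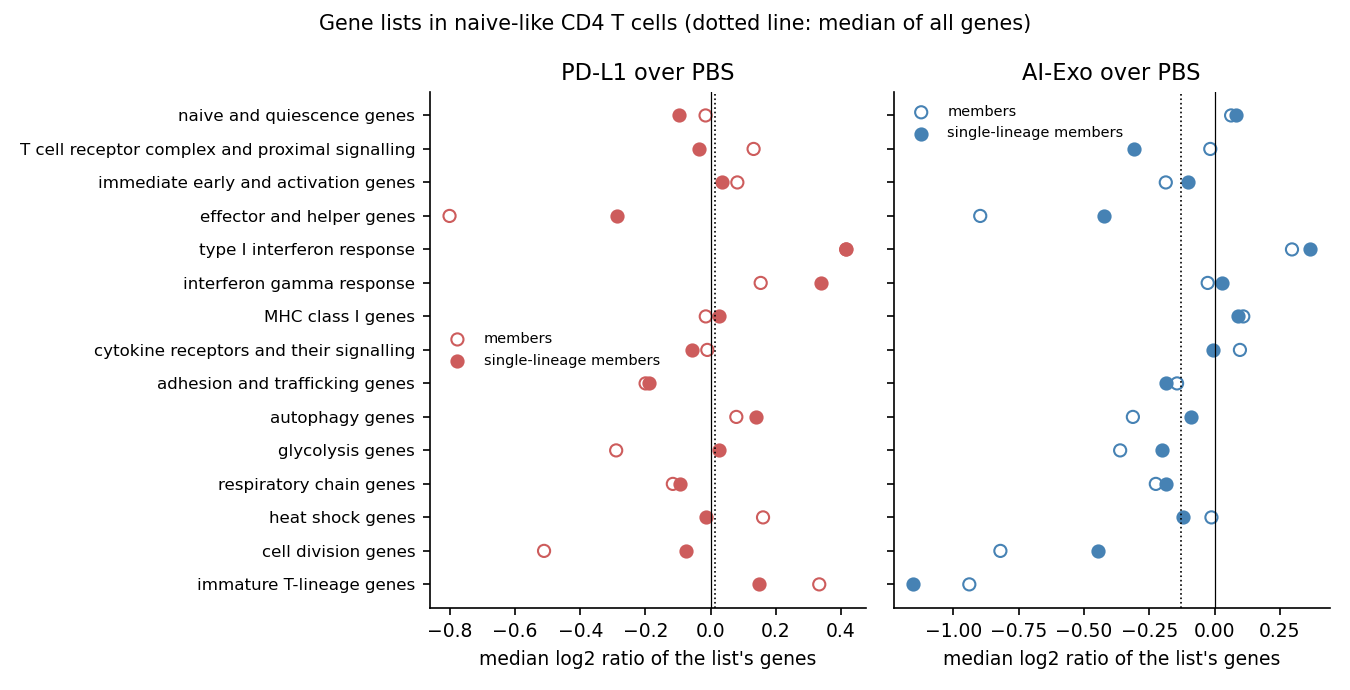
Median log2 ratio of the measured genes of each list, for PD-L1 over PBS and AI-Exo over PBS, over all members (open circles) and single-lineage members (filled circles), with a dotted line at the median of all genes over single-lineage members. The type I interferon list lies at 0.41 and 0.37 over single-lineage members, and the immature T-lineage list at 0.15 for PD-L1 and -1.15 for AI-Exo.

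The widest single-lineage ratios for PD-L1 over PBS belonged to no one list. The 8 highest were Purb, Ikzf2, Mpp7, Brd1, Hnrnpa0, Tob2, Slk and Kdm6b, at 1.12 to 0.90. Purb, a binder of single-stranded nucleic acid, had 142, 51.5 and 60.2 CPM in PD-L1, AI-Exo and PBS, and Brd1, a chromatin reader, had 112, 58.7 and 49.4 CPM. The 8 lowest were Dnajc15, Btla, Cpm, Hist1h2bc, Akap8, Rbm3, Pdk1 and Ahsa1, at -1.05 to -0.77. Carboxypeptidase M, encoded by Cpm, had 336, 357 and 635 UMIs per 1000000, and the cold-inducible RNA-binding protein gene Rbm3 had 531, 645 and 934 CPM, so PBS was the highest library for both.

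For AI-Exo over PBS the 8 highest were Cxcl10, Ifih1, Isg15, Ifit2, Ifit1, Trim26, Wdr44 and Nlrc5, at 1.60 to 0.79. The 8 lowest were Itm2a, Sox4, Hist1h4i, Stmn1, Hist1h2bc, Ap3s1, Rab21 and Hnrnpa0, at -2.55 to -1.18. Ap3s1, a subunit of a vesicle coat adaptor, had 97.0, 51.5 and 141 CPM in PD-L1, AI-Exo and PBS.

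Hnrnpa0 and Rab21 were lower in AI-Exo than in PBS in every class looked at, B cells included. Hnrnpa0, an RNA-binding protein, had 378, 75.5 and 184 CPM in single-lineage members of PD-L1, AI-Exo and PBS and 300.4, 85.1 and 187 CPM in B cells. Rab21, a small GTPase of early endosomes, had 156, 70.7 and 185 CPM in members and 225, 99.3 and 220.3 CPM in B cells. The AI-Exo over PBS log2 ratios were -1.18 and -1.27 in members, and -1.05 and -1.08 in B cells. With 1 library per group, library and treatment cannot be told apart for these genes or for any other difference between libraries given here.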

How the data were processed

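The authors deposited raw UMI counts per gene and barcode for 3 droplet libraries, unfiltered, written by Cell Ranger 7.1.0 per the file headers, while the submitters' processing notes name version 3.0.2. The genome build was not given in the sources used here, nor was the annotation. From these counts, cells were kept at 500 UMIs, 200 genes and 20% mitochondrial UMIs, and members were taken by the rule in the report. The members and the 23 gene lists (394 genes, 393 of them in the files) were chosen with earlier results of these data known.

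UMIs were summed over cells and scaled to CPM. Ratios are log2 of CPM plus 10 over CPM plus 10, among genes at 50 CPM or more in either library. Sums have exact Poisson and shares exact Clopper-Pearson 95% intervals. Genes were named as the 8 highest and 8 lowest ratios among genes at 100 CPM and 50 UMIs, as list extremes, or from fixed markers; mitochondrial, ribosomal, antigen receptor, haemoglobin, sex-linked and predicted genes were not named. Some genes that this rule names are not reported here. Genes named for their level in other ways were chosen after their values were seen. Doublets were scored with Scrublet and were left in except in an alternative. Python 3.11.15, numpy 2.4.6, scipy 1.17.1, pandas 2.3.3, scanpy 1.11.5, matplotlib 3.10.9, and R 4.3.3 with edgeR 4.0.16 (TMM factors only) were used. The ratio code was tested on simulated data. Promoters came from RefSeq.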

Additional observations from a re-analysis of the deposited data

How the results depend on the processing

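No paired analysis was possible because each group has 1 library. Of the log2 ratios of named genes, over all alternatives, 1508 moved by less than their interval, 315 moved further and 31 changed direction. The share of cells was 1.15%, 0.937% and 1.04% in PD-L1, AI-Exo and PBS with at least 2 UMIs of Cd4 and Cd40lg, where 203 genes were higher for PD-L1, 137 for AI-Exo, and Fabp5 stood at -0.64 for AI-Exo. With T cells as denominator it was 11.3%, 8.25% and 9.22%.

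With the rule applied to counts thinned to 1000 UMIs, the shares were 0.33%, 0.296% and 0.416%, with ratios of 0.794 for PD-L1 and 0.711 for AI-Exo. PD-L1 then had 838 genes higher and 672 lower, AI-Exo 498 and 992. For PD-L1 the effector list median was 0.03, and the log2 ratios were 1.96 for Lcn2, 0.01 for Plac8 and -0.64 for Ifit3. For AI-Exo the myeloid list median was 2.25, and the ratios were 2.75 for Spp1, 1.17 for Mrc1, 1.17 for Ccl9, 0.70 for Lcn2, 0.46 for Rsad2 and -0.12 for Trim26. This rule keeps far fewer cells.

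Counts of called genes followed the settings, given as higher and lower for PD-L1 and then AI-Exo. They were 40 and 91, then 22 and 179, at a pseudocount of 50 CPM. They were 513 and 715, then 285 and 1262, with no minimum level, and 18 and 42, then 11 and 69, at 200 CPM. At 2-fold they were 25 and 63, then 17 and 130. For AI-Exo, TMM scaling gave 192 and 230, centring on the median gene 154 and 264, and scaling without mitochondrial and ribosomal protein genes 161 and 425. With cells weighted equally 129 genes were lower for PD-L1.

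Centring, a minimum on the mean of both libraries and the next 2 settings were chosen after seeing the data. That minimum gave 92 and 137, then 44 and 284. Without members with myeloid or class II UMIs, the shares were 1.72% in PD-L1 and 1.60% in PBS, and 106 genes were lower for PD-L1. For PD-L1 Ccl8 was at -0.21, Slc7a11 at -0.23, Ltf at 0.32 and Plac8 at 0.07. For AI-Exo Fabp5 was at -0.69, Spp1 at 0.14, Camp at 0.29, Lcn2 at 0.10 and Rsad2 at 0.40. Also without members at 15 or more immature UMIs, the shares were 1.41% in PD-L1 and 1.36% in PBS, the AI-Exo ratio of shares was 1.21, and 219 genes were lower for AI-Exo. For PD-L1 Ccl8 was at -0.25, Slc7a11 at -0.25, Lcn2 at 0.21, Ltf at 0.39 and Ikzf2 at -1.21. For AI-Exo Fabp5 was at -0.81, Spp1 at 0.18, Camp at 0.44, Lcn2 at 0.32 and Rsad2 at 0.03. Rsad2 was at 0.04 for AI-Exo without Scrublet scores of 0.15 or more, and Fabp5 at -1.04 without barcodes shared between libraries. The cause of these changes was not tested.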
